A study of Mus musculus with 24 samples.

Results

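The AP-1 subunit genes were followed on microarrays of mouse osteocyte-like cells after oscillating fluid flow. A gene was taken when the platform annotation gave a probe set exactly 1 symbol and that symbol was Fos, Fosb, Fosl1, Fosl2, Jun, Junb, Jund or Atf3. This gave 8 genes with 10 probe sets, of 12393 genes and 22690 probe sets on the array. Fosl1 and Jun had 2 probe sets each, and the other 6 genes had 1.

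MLO-Y4 is a mouse cell line used as a model of osteocytes, the mechanosensitive cells embedded in bone, and its strain background is a mix of C57B1/6, BALB/c and DBA2. The 24 arrays are labelled as 8 groups of 3: flow and sham at 0, 2, 8 and 24 h. Flow cells had 2 h of oscillating flow (peak shear stress 10 dyn/cm2, 1 Hz) on collagen-coated slides and were collected at once or after a further incubation in fresh medium, and each flow sample had a paired control, here called sham, kept in a matching chamber without flow. Which flow array and which sham array form a pair is not given in the sources used here. The labels give all 4 times. The methods of the study describe triplicate samples of cells for RNA that was sequenced after the 2 h incubation, and for the arrays it is not said whether the 3 samples with a label are separate cultures. The p-values therefore cover the spread among these samples, which may be technical in part or whole. As a single line in culture, MLO-Y4 lacks some markers of the mature osteocyte. Phex, Pdpn, Gja1 and Cd44 were at a log2 value of 6 or more on all 24 arrays, whereas Dmp1, Mepe, Sost and Fgf23 were below 6 on all of them. Values are on the log2 scale, so a difference of 1 is a 2-fold difference, and levels of different probe sets are not compared.

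AP-1 is a transcription factor made of pairs of basic leucine zipper (bZIP) proteins. Jun proteins pair with each other or with Fos proteins, Fos proteins need a Jun partner, and Atf3 can pair with Jun proteins. Many of these genes are immediate early genes, whose RNA appears soon after serum, growth factors or mechanical load without new protein synthesis and decays quickly. In bone cells AP-1 is known as one of the links between mechanical load and gene expression.

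The promoters shown are those of the 5 members with a match to the motif given below. Of these, 4 had their highest values on the same arrays, whereas Atf3 did not. Fosl2 and Jund, which had no match and are not shown, did not either. A link between the matches and the array values was not tested. Of the 8 members, 7 matched an entry in the RefSeq promoter table (build GRCm38.p6), and Fosl1 did not. Each sequence is the 250 bases before the transcription start in that table, 5′ to 3′ on the strand of the gene. Capitals mark a cyclic AMP response element core (TGACG, or TGACNTCA with any base N) on either strand. The windows are chr12:85473640-85473889 (plus strand), chr7:19310046-19310295 (minus), chr4:95052223-95052472 (minus), chr8:84978749-84978998 (minus) and chr1:191183334-191183583 (minus).
Fos: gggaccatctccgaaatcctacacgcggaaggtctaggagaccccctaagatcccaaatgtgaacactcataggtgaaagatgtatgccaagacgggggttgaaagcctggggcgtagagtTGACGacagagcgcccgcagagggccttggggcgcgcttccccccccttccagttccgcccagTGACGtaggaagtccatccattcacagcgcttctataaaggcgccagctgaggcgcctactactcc
Fosb: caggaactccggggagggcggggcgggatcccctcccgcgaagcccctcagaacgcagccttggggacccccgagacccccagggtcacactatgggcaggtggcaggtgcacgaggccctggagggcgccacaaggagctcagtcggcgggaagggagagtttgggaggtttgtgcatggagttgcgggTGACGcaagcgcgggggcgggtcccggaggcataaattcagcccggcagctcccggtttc
Jun: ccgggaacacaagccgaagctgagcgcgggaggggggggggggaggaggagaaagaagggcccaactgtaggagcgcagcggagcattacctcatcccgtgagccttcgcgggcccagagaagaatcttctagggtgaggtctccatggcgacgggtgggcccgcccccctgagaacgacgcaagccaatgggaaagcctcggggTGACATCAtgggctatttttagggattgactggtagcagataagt
Junb: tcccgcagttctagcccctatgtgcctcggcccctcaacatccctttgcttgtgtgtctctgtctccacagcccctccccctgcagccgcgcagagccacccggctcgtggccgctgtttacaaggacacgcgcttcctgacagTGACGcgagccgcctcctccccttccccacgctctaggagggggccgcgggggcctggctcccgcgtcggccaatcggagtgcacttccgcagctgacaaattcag
Atf3: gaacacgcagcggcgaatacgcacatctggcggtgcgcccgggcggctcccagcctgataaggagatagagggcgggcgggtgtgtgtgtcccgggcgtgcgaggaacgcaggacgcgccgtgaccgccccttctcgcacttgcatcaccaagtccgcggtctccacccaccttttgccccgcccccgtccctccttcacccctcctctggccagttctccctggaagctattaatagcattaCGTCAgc
The Fos promoter held TGACG at -129 to -125 and at -66 to -62, counted from the base before the start as -1, and a TATAA, left in lower case, at -33 to -29. Fosb held TGACG at -60 to -56 and Junb at -106 to -102, and Atf3 held it on the reverse strand at -7 to -3. Jun held the 8-letter form as TGACATCA at -45 to -38. No match to either form was found in the Fosl2 and Jund windows. TGANTCA, the 7-letter AP-1 site widened to any middle base N, was found in none of the 7 windows. In windows of the same length before 32851 transcription starts, TGACG was present in 17.8%, TGACNTCA in 7.49%, its special case TGACGTCA, which contains TGACG, in 1.55%, TGANTCA in 6.75% and TATAA in 22.8%. These matches are letters in a window, and no binding was measured.

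The resemblance between arrays did not always follow their labels, which bears on every value below. By the correlation of deviations from each gene's mean, the most similar array lay in the adjacent deposited column (columns 1 and 2, 3 and 4, and so on) for 22 of the 24 arrays and 8 columns away for the other 2, and it carried the same label for 16. Each array is named here by its label, with its column number where the order of columns is described. As a check of RNA integrity, the 3′ probe set of a control gene minus its 5′ probe set was 0.138 to 0.262 for beta-actin and -0.196 to -0.0743 for Gapdh (log2) over all arrays.

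**Figure D1:**
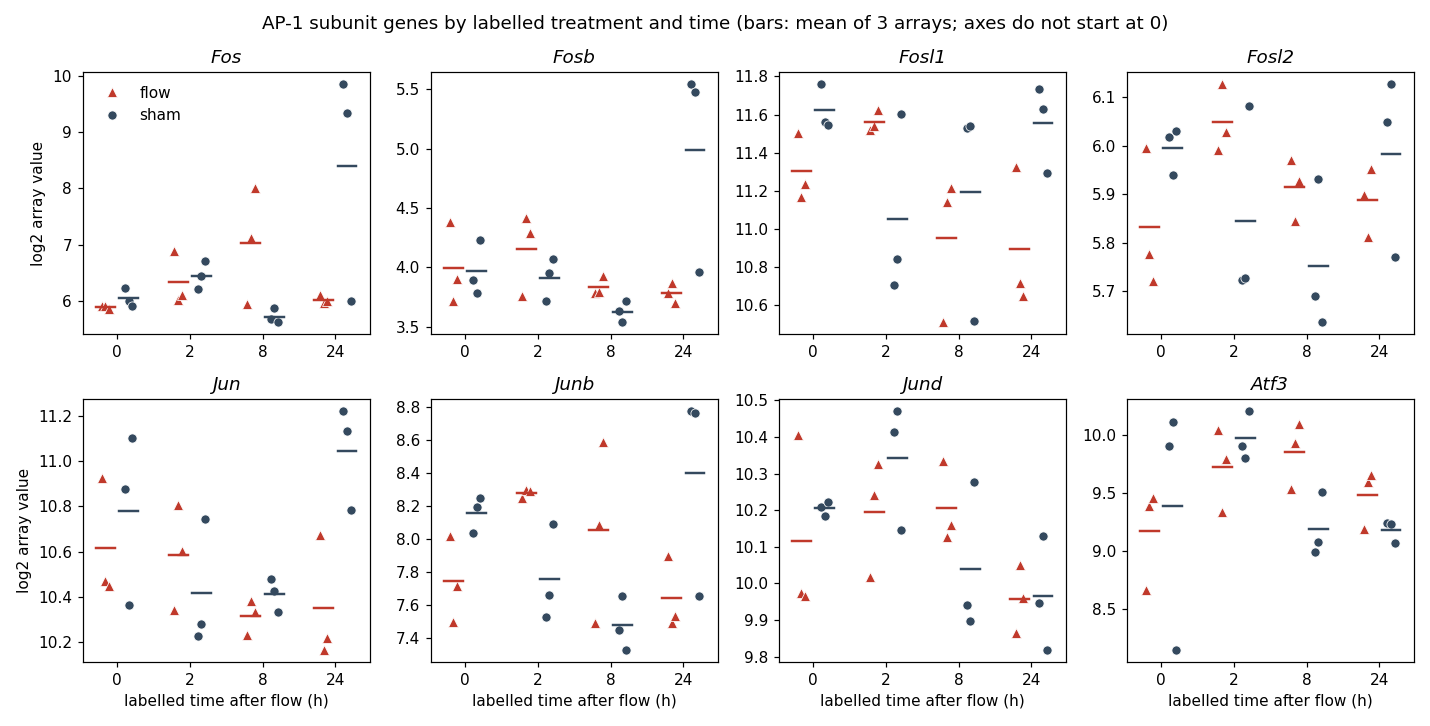
Log2 value of each AP-1 gene (y axis, not starting at 0) against the labelled time after flow in hours (x axis), with a triangle for each flow array, a circle for each sham array and a bar for the mean of 3 arrays. Replicates 1 and 2 of sham at 24 h hold the 2 highest values of Fos, Fosb, Jun and Junb, with Fos at 9.86 and 9.33.

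Fos, which encodes the founding member of the Fos family, had the widest range of the 8 genes. Its single probe set (1423100_at) ran over 4.24 log2 units, and 5 of the 12393 genes had a wider range, against a median range of 0.516 over all genes. At 24 h Fos was at 6.10, 5.97 and 6.00 on the flow arrays, against 9.86, 9.33 and 5.99 on the sham arrays (replicates 1, 2 and 3). The flow arrays lay close together, sham replicates 1 and 2 stood far above them, and sham replicate 3 lay within the flow range. At 8 h Fos was at 5.95, 7.12 and 8.01 under flow, against 5.68, 5.86 and 5.61 under sham. Here all 3 flow arrays lay above all 3 sham arrays, flow replicate 1 by less than 0.1. At 2 h Fos was at 6.89, 6.02 and 6.10 under flow, against 6.20, 6.44 and 6.70 under sham, and at 0 h at 5.91, 5.90 and 5.85 under flow, against 6.22, 6.00 and 5.91 under sham. The groups overlapped at both of these times. Fos was at or above 6 on 12 of the 24 arrays.

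Fosb encodes a close relative of Fos. Its probe set (1422134_at) stayed below 6, the level used to filter dim genes, on all 24 arrays, and ran over 2.01 log2 units. At 24 h Fosb was at 3.78, 3.87 and 3.70 under flow, against 5.55, 5.48 and 3.96 under sham, so that no flow array reached a sham array and replicates 1 and 2 of sham again stood apart. At 8 h it was at 3.79, 3.79 and 3.93 under flow, against 3.63, 3.54 and 3.71 under sham, and all flow arrays lay above all sham arrays by a small margin. At 2 h it was at 3.76, 4.42 and 4.29 under flow, against 3.72, 3.95 and 4.07 under sham, and at 0 h at 4.38, 3.72 and 3.90 under flow, against 3.89, 3.78 and 4.23 under sham. The groups overlapped at 0 and 2 h.

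Fosl1 and Fosl2 encode Fra-1 and Fra-2, Fos family proteins that lack the strong transactivation domain of Fos. The Fosl1 probe set with the higher mean (1417487_at) was at 11.33, 10.72 and 10.65 under flow at 24 h, against 11.73, 11.63 and 11.30 under sham. At 2 h it was at 11.52, 11.54 and 11.62 under flow, against 10.71, 10.84 and 11.60 under sham. Sham replicate 3 sat inside the flow range at 2 h, and the groups overlapped at both times. At 8 h Fosl1 was at 10.51, 11.14 and 11.21 under flow, against 11.53, 11.54 and 10.52 under sham, which also overlapped, and at 0 h at 11.50, 11.17 and 11.24 under flow, against 11.76, 11.56 and 11.54 under sham, where flow lay below. The other Fosl1 probe set (1417488_at) followed it over the 24 arrays (Pearson r = 0.975, a description). On that probe set the groups overlapped at 0 h, at 9.58, 8.97 and 9.21 under flow, against 9.69, 9.41 and 9.72 under sham. Fosl2 (1422931_at) ran from 5.64 to 6.13, a width of 0.49 that 6883 genes exceeded, and flow and sham overlapped at all 4 times.

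Jun encodes the founding member of the Jun family. On its probe set with the higher mean (1417409_at), Jun was at 10.67, 10.16 and 10.22 under flow at 24 h, against 11.22, 11.13 and 10.79 under sham, with each flow array below each sham array. The groups overlapped at the other times, where Jun was at 10.93, 10.47 and 10.45 under flow and 10.88, 10.37 and 11.10 under sham at 0 h, at 10.34, 10.81 and 10.60 under flow and 10.23, 10.28 and 10.74 under sham at 2 h, and at 10.23, 10.38 and 10.33 under flow and 10.48, 10.42 and 10.33 under sham at 8 h. The other Jun probe set (1448694_at; r = 0.955 with the first) gave 9.69, 9.18 and 9.20 under flow at 24 h, against 10.39, 10.40 and 9.78 under sham, also without overlap.

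Junb encodes a Jun protein that activates many promoters less strongly than Jun. At 2 h Junb (1415899_at) was at 8.25, 8.30 and 8.29 under flow, against 7.53, 7.66 and 8.09 under sham, with each flow array above each sham array. At 24 h it was at 7.90, 7.49 and 7.53 under flow, against 8.77, 8.77 and 7.65 under sham, and at 8 h at 7.49, 8.09 and 8.59 under flow, against 7.45, 7.66 and 7.33 under sham. Sham replicates 1 and 2 were again the highest at 24 h, and the groups overlapped at both times. At 0 h Junb was at 8.02, 7.50 and 7.71 under flow, against 8.03, 8.19 and 8.25 under sham, with flow below.

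Jund, the Jun gene that most cells express without stimulation, varied little (1449117_at, 9.82 to 10.47), and 3373 genes had a wider range. Flow and sham overlapped at all 4 times. Atf3, a stress-induced bZIP factor that often represses its targets (1449363_at), ran from 8.14 to 10.20. At 8 h Atf3 was at 9.54, 9.93 and 10.09 under flow, against 8.99, 9.08 and 9.51 under sham, with each flow array above each sham array. At 0 h it was at 8.66, 9.39 and 9.46 under flow, against 9.90, 10.11 and 8.14 under sham, where sham replicate 3 held the lowest and sham replicate 2 the second highest Atf3 value of the series. At 24 h Atf3 was at 9.19, 9.60 and 9.66 under flow, against 9.24, 9.23 and 9.06 under sham, so that sham replicates 1 and 2, the arrays with the highest Fos, did not stand out for Atf3.

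The comparison of flow with sham at each time asks whether the genes differ after flow. In limma, with Benjamini-Hochberg adjustment over 12393 genes, 0 of the 8 AP-1 genes passed an adjusted p of 0.05 at any of the 4 times, and 0 of all genes did (0.0% at 0, 2, 8 and 24 h). With array weights, which give arrays that depart from their label less weight, the AP-1 genes called numbered 0, 3, 3 and 5 at 0, 2, 8 and 24 h (18.8%, 18.7%, 25.4% and 19.1% of all genes). The weights were estimated from the same values. In every group the lowest weight fell on the array whose pair of adjacent columns held another label. The weighted calls are therefore not separate evidence of a difference after flow. In RNA of whole cultures, less RNA per cell and fewer cells that carry the RNA cannot be told apart.

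At 24 h the mean was lower under flow than under sham for 7 of the 8 genes, with a median log2 difference of -0.68 over the 8, beside 0.01 over all genes. At an unadjusted p under 0.05, 5 of the 8 were lower (Fos, Fosb, Fosl1, Jun and Junb) and 0 were higher, beside 5.7% of all genes lower and 9.8% higher. Flow and sham did not overlap for Fosb and Jun, both below, which 6.29% of all genes were. Fos averaged 6.02 ± 0.07 under flow and 8.39 ± 2.10 under sham (SD, n = 3 each), a log2 difference of -2.37 (standard error 0.63, 95% interval -3.68 to -1.07, adjusted p = 0.290 from limma), or 5.18-fold higher in sham. This standard error and interval use a spread pooled over all 8 groups. They do not measure the spread at 24 h alone, where the SD of sham was 2.10. Fosb differed by -1.21 (standard error 0.28, adjusted p = 0.290 from limma), the 11th smallest p of all genes, Jun by -0.70 (standard error 0.19) and Junb by -0.76 (standard error 0.26). The second Jun probe set gave -0.83, and the 2 Fosl1 probe sets gave -0.66 and -0.79. Fosl2, Jund and Atf3 differed by -0.09, -0.01 and 0.30, and their intervals included 0.

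These 24 h differences rested on which sham arrays were used. Without sham 24 h replicate 3, 4 of the 8 genes passed an adjusted p of 0.05, beside 278 of all genes (2.24%), with Fos at -3.57 and Fosb at -1.73 (adjusted p = 3.39e-05 each, limma), Jun at -0.83 (adjusted p = 0.0394) and Junb at -1.13 (adjusted p = 0.0174). Without sham 24 h replicates 1 and 2, a choice made after their values were seen, the difference of Fos was 0.031, of Fosb -0.18, of Junb -0.01 and of Jun -0.43. The RNA quality of those 2 arrays lay within the range of the others, at 0.168 and 0.203 for beta-actin and -0.164 and -0.133 for Gapdh. Of 7 lists of cell type markers, the summed levels of 6 on those arrays lay inside the range of the others. That of the chondrocyte list (Acan, Col2a1 and Sox9) was highest on sham 24 h replicate 1 (8.17 on the log2 scale, beside a lowest value of 6.94), where Sox9 had its highest value, 7.76. Acan and Col2a1 were below 6 on all 24 arrays. The part of Sox9 in these results was not tested.

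**Figure D2:**
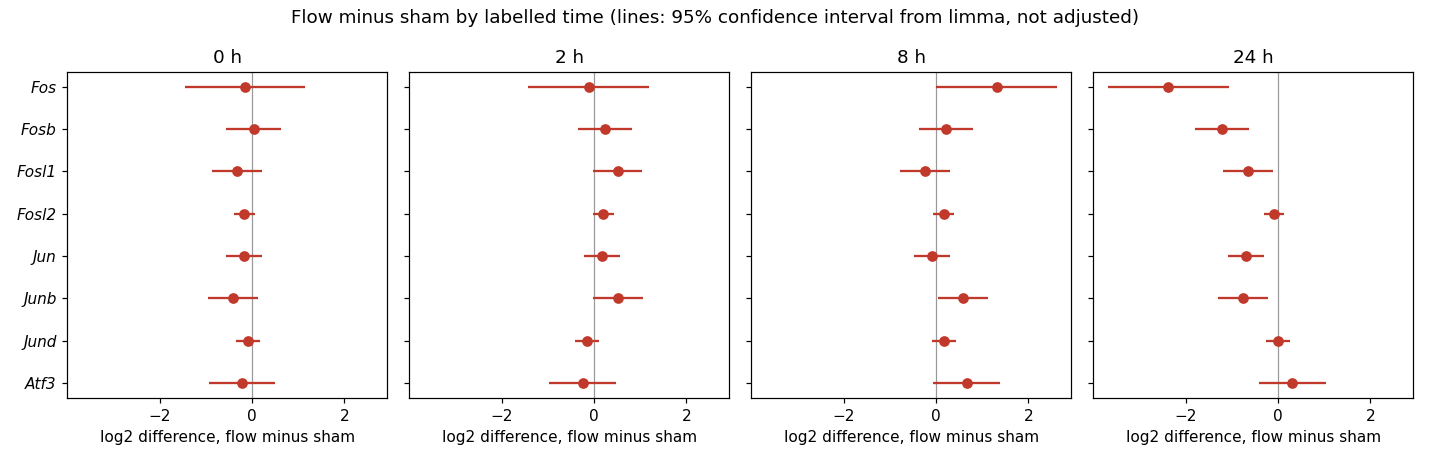
Log2 difference of each AP-1 gene, flow minus sham (x axis), at each labelled time, with genes on the y axis, points for the limma estimate and lines for the unadjusted 95% confidence interval. At 24 h the intervals of Fos, Fosb, Fosl1, Jun and Junb lie below 0, with Fos at -2.37, and at 0 and 2 h all 8 intervals include 0. For each gene the intervals use a spread pooled over all groups, not the spread at the time shown.

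At 8 h the mean was higher under flow for 6 of the 8 genes (median 0.19, beside 0.01 over all genes). Fos differed by 1.31 (standard error 0.63, 95% interval 0.0027 to 2.62, adjusted p = 0.347 from limma) and Junb by 0.58 (standard error 0.26, adjusted p = 0.322 from limma). These 2 genes were higher at an unadjusted p under 0.05 and 0 were lower, beside 6.63% of all genes higher and 7.74% lower. Flow lay above sham without overlap for 3 genes, Fos, Fosb (0.21) and Atf3 (0.66), beside 7.05% of all genes. Without flow 8 h replicate 3, the difference was 0.82 for Fos and 0.31 for Junb, and without flow 8 h replicate 1 it was 1.85 and 0.86 (adjusted p = 0.0965 and 0.0550, limma).

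At 2 h the mean was higher under flow for 5 of the 8 genes (median 0.19, beside 0.00 over all genes), and 0 of the 8 passed an unadjusted p of 0.05 (5.99% of all genes were higher and 7.58% lower). Junb differed by 0.52 (standard error 0.26, adjusted p = 0.375 from limma) and was the 1 gene with flow above sham without overlap, beside 9.16% of all genes. Fosl1 differed by 0.51 and Fosl2 by 0.20, and the second Fosl1 probe set by 0.69 (adjusted p = 0.367 from limma over all probe sets). Without sham 2 h replicate 3, Fosl1 differed by 0.79 and Fosl2 by 0.32 (adjusted p = 0.0885 and 0.0834, limma), and without sham 2 h replicate 1 Fosl1 differed by 0.34. Fos differed by -0.11 (95% interval -1.42 to 1.19), Fosb by 0.24, Jun by 0.17, Jund by -0.15 and Atf3 by -0.25. The Fos interval uses the pooled spread, while the SD of Fos at 2 h was 0.48 under flow and 0.25 under sham.

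At 0 h the mean was lower under flow for 7 of the 8 genes, with a median of -0.17, beside 0.01 over all genes, and 0 of the 8 passed an unadjusted p of 0.05 (8.42% of all genes were higher and 5.53% lower). Junb (-0.42) and Fosl1 (-0.32) lay below sham without overlap, which 7.92% of all genes did. On the second Fosl1 probe set the difference was -0.35 and the groups overlapped. Fos differed by -0.15 (95% interval -1.46 to 1.15). The width of this interval comes from the pooled spread, while the SD of Fos at 0 h was 0.033 under flow and 0.159 under sham. In limma on the 6 arrays at 0 h alone, the adjusted p of Fos was 0.469, against 0.938 with all arrays.

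Over the 4 times the differences of several members had opposite signs. In a moderated F-test of whether flow minus sham differed between the times, 0 of the 8 genes and 0 of all genes (0.0%) passed an adjusted p of 0.05 in limma, and 5 of the 8 had an unadjusted p under 0.05, beside 27.3% of all genes. The smallest adjusted p were 0.0803 for Junb, 0.0823 for Fosb and 0.0840 for Fos. Leaving out 1 array gave up to 4 called members, namely 1 without flow 0 h replicate 1, 4 without sham 2 h replicate 3, and 3 each without flow 8 h replicate 1 and without sham 24 h replicate 3, and array weights gave all 8, beside 8.29%, 13.8%, 16.5%, 7.88% and 48.1% of all genes. Averaged over the times, 0 of the 8 were called (0.0% of all genes) and Jun alone had an unadjusted p under 0.05 (-0.20, adjusted p = 0.996 from limma), beside 4.79% of all genes.

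Across the times, 0 of the 8 genes passed among the flow arrays (0.226% of all genes called) and 0 among the sham arrays (0.412% called). At an unadjusted p under 0.05 these counts were 0 of 8 among flow arrays, beside 17.1% of all genes, and 5 of 8 among sham arrays (Fos, Fosb, Jun, Junb and Jund), beside 21.1%. The smallest adjusted p among sham arrays was 0.0740, for Fosb. Without sham 24 h replicate 3, 3 members were called among sham arrays (1.9% of all genes), and without sham 2 h replicate 3 it was 1 (3.31%). Array weights called all 8 among sham arrays (37.7%) and 4 among flow arrays (44.3%).

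When the 8 groups were ordered by mean, sham at 24 h was the highest for Fos, Fosb, Jun and Junb. For Fos it was followed by flow at 8 h (7.03 ± 1.03, SD, n = 3), sham at 2 h (6.45) and flow at 2 h (6.34), and sham at 8 h was the lowest (5.72). Neighbouring groups in the Fos order overlapped except flow at 24 h (6.02) and flow at 0 h (5.89), whose ranges were apart. Sham at 8 h was also the lowest group for Fosb, Fosl2 and Junb.

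In the order of the deposited columns, the values of several members recurred at intervals of 8 columns. The sets of columns below were chosen after the values were seen, no condition is taken from them, and no test was made.

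**Figure D3:**
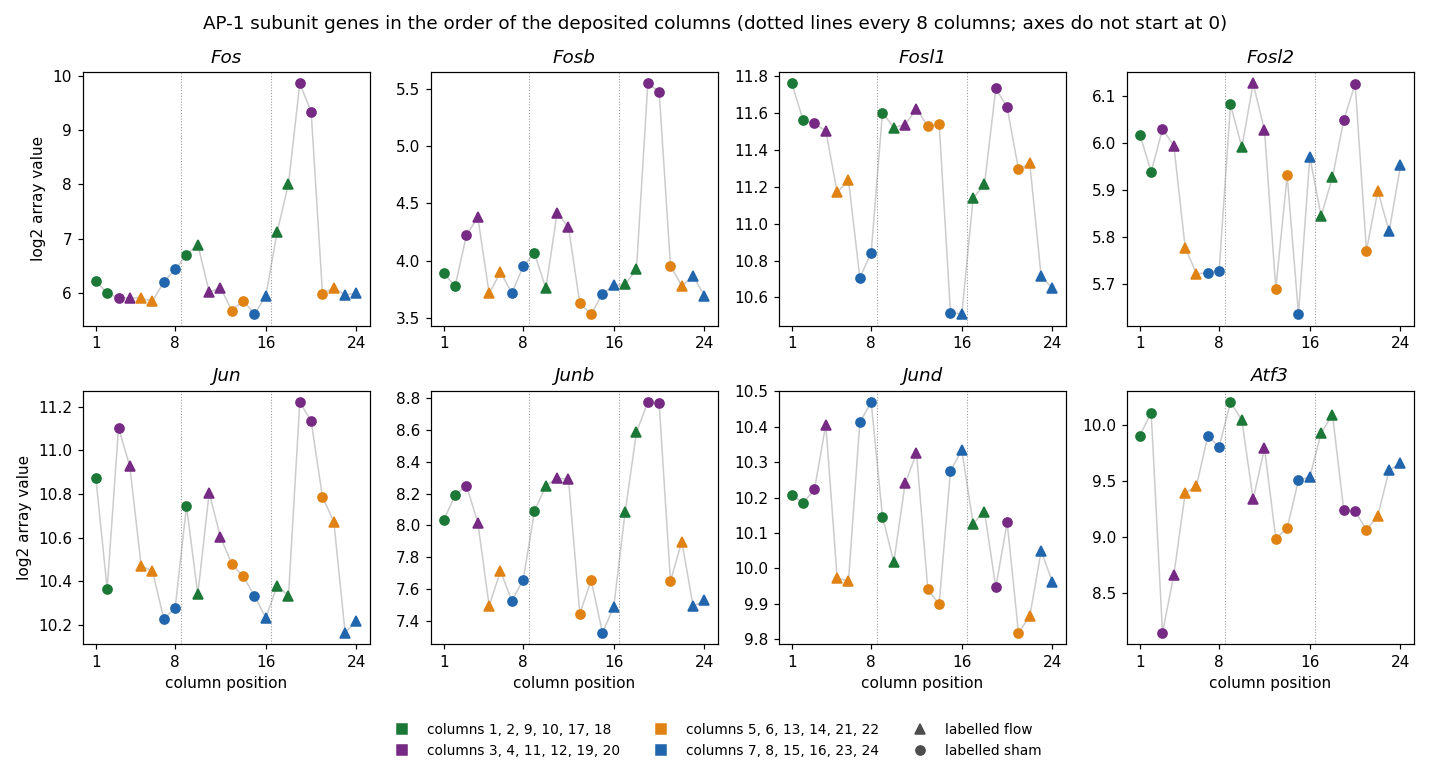
Log2 value of each AP-1 gene (y axis, not starting at 0) in the order of the deposited columns 1 to 24 (x axis), with a triangle for each array labelled flow, a circle for each labelled sham, a colour for each set of 6 columns and dotted lines every 8 columns. Fosl1 dips in each run of 8 columns at the same place (columns 7, 8, 15, 16, 23 and 24, 10.51 to 10.84), and Fos peaks in columns 17 to 20.

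Fosl1 was at 10.51 to 10.84 in columns 7, 8, 15, 16, 23 and 24, which are labelled sham 2 h replicates 1 and 2, sham 8 h replicate 3, flow 8 h replicate 1 and flow 24 h replicates 2 and 3. It was at 11.14 to 11.76 in the other 18 columns, with a gap of more than 0.2, and the second Fosl1 probe set separated the same columns (8.42 to 8.79, beside 8.97 to 9.87). Of all genes, 2.44% lay below all others in these columns. Jun was lowest in the same 6 columns (10.16 to 10.33, beside 10.33 to 11.22), but with almost no gap, and its second probe set overlapped.

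Fosb was at 4.23 to 5.55 in columns 3, 4, 11, 12, 19 and 20, labelled sham 0 h replicate 3, flow 0 h replicate 1, flow 2 h replicates 2 and 3 and sham 24 h replicates 1 and 2, and at 3.54 to 4.07 in the other 18. Of all genes 3 (0.0242%) were above all others in these columns, Fosb, Dclre1b and Mrpl50. Atf3 was at 9.90 to 10.20 in columns 1, 2, 9, 10, 17 and 18 and at 8.14 to 9.90 in the other 18, touching at the boundary, a set that 0.266% of all genes topped. Junb was at 8.02 to 8.77 in columns 1 to 4, 9 to 12 and 17 to 20 and at 7.33 to 7.90 in the other 12, which held for 1.19% of all genes.

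Fos did not repeat in this way. Its 4 highest values (7.12, 8.01, 9.86 and 9.33) lay in columns 17 to 20, in order flow 8 h replicates 2 and 3 and sham 24 h replicates 1 and 2. The median of Fos was 5.95 in columns 1 to 8, 5.98 in columns 9 to 16 and 6.61 in columns 17 to 24.

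**Figure D4:**
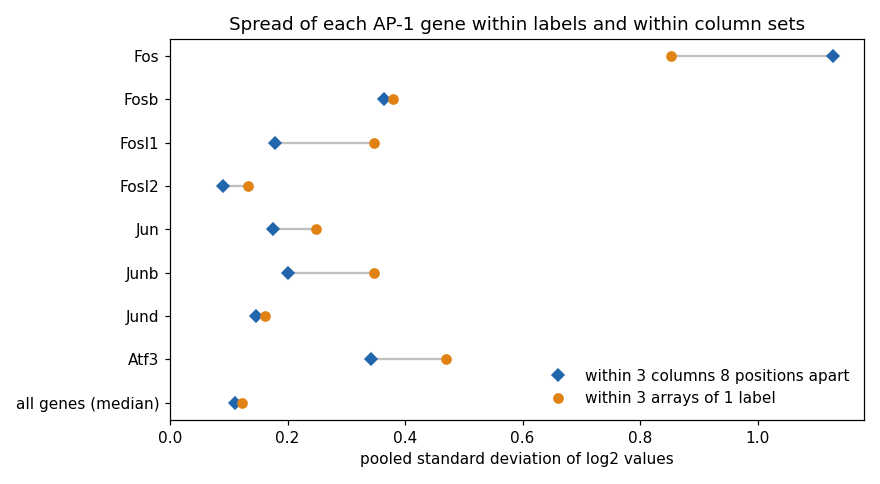
Pooled standard deviation of log2 values (x axis, from 0) for each AP-1 gene and for the median of all genes (y axis), within the 3 arrays of 1 label (circles) and within 3 columns that lie 8 positions apart (diamonds). The diamond lies left of the circle for 7 of the 8 genes, with Fosl1 at 0.179 beside 0.348, and right of it for Fos.

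The spread was compared in the same way. Within 3 columns that lie 8 positions apart, the pooled standard deviation was 0.179 for Fosl1, against 0.348 within labels, and 0.200 for Junb, against 0.347 within labels. It was smaller in columns 8 apart for 7 of the 8 members and for 65.5% of all genes, and for Fos it was larger, at 1.13 in columns 8 apart, against 0.853 within labels. Over all genes the median was 0.111 within such columns and 0.122 within labels.

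Genes whose values followed those of a member most closely are given as a description over 24 arrays, which share labels, columns and processing and are not independent. For Fos these were Egr1 (Pearson r = 0.954), Egr2 (0.927) and Btg2 (0.920), and without sham 24 h replicates 1 and 2 they were 0.833, 0.692 and 0.651. Egr1 and Egr2 encode zinc finger transcription factors and Btg2 an antiproliferative protein. For Fosb they were Klf6 (0.915), Btg2 (0.862) and Egr2 (0.856), which without those 2 arrays had 0.640, 0.342 and 0.358. Junb was followed by the kinase gene Plk2 (0.944, and 0.912 without the 2 arrays), Jun by Errfi1 (0.848), Fosl1 by Strap (0.939), Fosl2 by Vps37a (0.806), Jund by Cpeb1 (0.745) and Atf3 by Cdt1 (0.928), a DNA replication licensing factor.

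**Figure D5:**
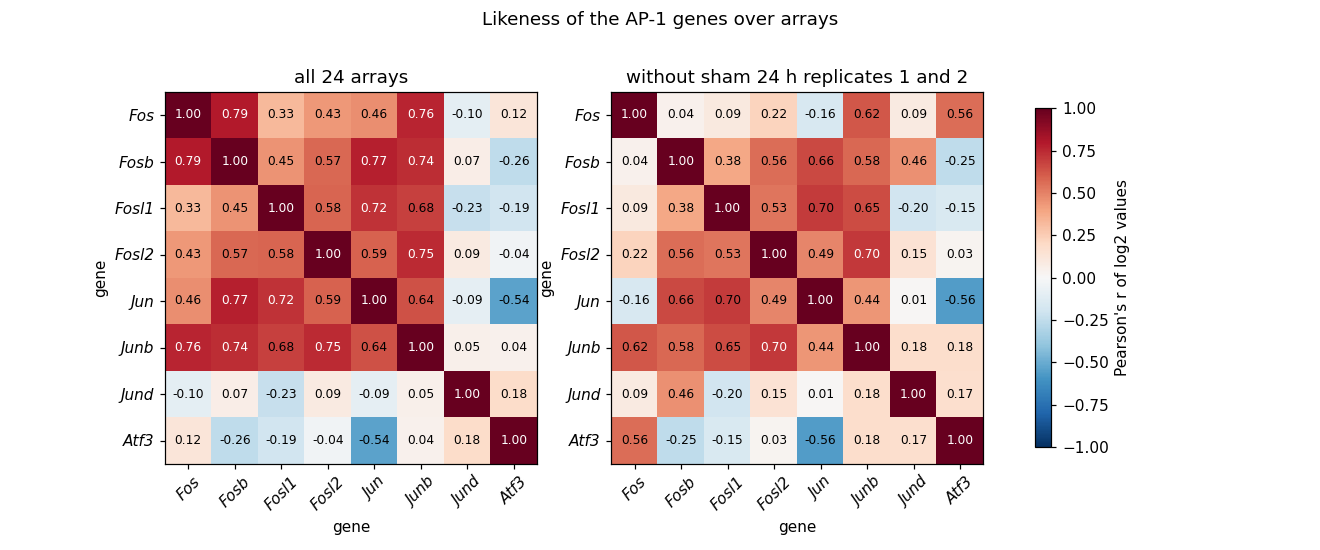
Pearson's r between the log2 values of each pair of AP-1 genes (both axes list genes, colour and number give r), over all 24 arrays (left) and without sham 24 h replicates 1 and 2 (right). The r of Fos and Fosb is 0.79 on the left and 0.04 on the right, while Fosl1 and Jun keep 0.72 and 0.70.

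Among the members, Fos and Fosb had r = 0.791 over all arrays and 0.042 without sham 24 h replicates 1 and 2, so that their likeness rested on those arrays. Fos and Junb had 0.761 and 0.618, Fosb and Jun 0.774 and 0.663, and Fosl1 and Jun 0.722 and 0.698. Jun and Atf3 ran opposite to each other (-0.536 and -0.557). The r of Jund with the other members lay between -0.234 and 0.183 over the 24 arrays.

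The other genes of the pathway were counted as whole lists. These lists were chosen with earlier results of these data known, so their counts are not independent support. Of 27 measured immediate early genes other than the members, 2 had a higher mean under flow at 24 h (median log2 difference -0.58), and 15 were lower and 0 higher at an unadjusted p under 0.05, beside 5.7% of all genes lower. Without sham 24 h replicates 1 and 2, 7 of the 27 had a higher mean under flow (median -0.15), and 1 was lower at an unadjusted p under 0.05 (1.15% of all genes). When sham 24 h replicate 3 was left out instead, 14 of the 27 were called at an adjusted p under 0.05 (2.24% of all genes). With all arrays, Btg2 differed by -0.92 (adjusted p = 0.164 from limma), Ccn1, a matricellular protein gene, by -1.42 and Trib1 by -0.71. At 8 h 24 of the 27 had a higher mean under flow (median 0.25) and 3 were higher at an unadjusted p under 0.05, beside 6.63% of all genes, the orphan nuclear receptor gene Nr4a1 (1.04), Gem (1.26) and Rgs2 (1.54). Without flow 8 h replicate 1 this count was 11 (9.97% of all genes). At 2 h 17 of the 27 were higher, 7 of them at an unadjusted p under 0.05, beside 5.99% of all genes, with Nr4a2 at 0.81, Klf10 at 0.87 and Klf2 at 0.84. That count was 4 without sham 2 h replicate 1 or 2 (2.92% and 3.25% of all genes) and 3 without flow 2 h replicate 2 (4.67%). At 0 h 4 of the 27 had a higher mean under flow (median -0.26). None was called at any time with all arrays (at 8 h, 3 were without flow replicate 1, beside 5.42% of all genes, and 2 without sham replicate 3, beside 2.43%). Among sham arrays 3 of the 27 differed between the times, beside 0.412% of all genes (Btg2, Ier5 and Ccn1, adjusted p = 0.0158, 0.0390 and 0.0396 from limma).

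Of 21 measured genes known as AP-1 targets, 0 were called at any of the 4 times with all arrays (0.0% of all genes). At 2 h all 21 had a higher mean under flow (median 0.32), beside 6257 of all 12393 genes. Because the list was chosen with earlier results of these data known, this count is not independent support. At an unadjusted p under 0.05, 11 were higher and 0 lower, beside 5.99% of all genes higher. The 11 became 5 without sham 2 h replicate 1, sham 2 h replicate 2 or flow 2 h replicate 3 (2.92%, 3.25% and 5.44% of all genes). The 3 with the smallest p were Plau, the urokinase gene (1.46), Lif, a cytokine of the interleukin-6 family (1.30), and Ccl2, a chemokine (1.54), with an adjusted p = 0.345 each from limma. At 24 h 2 of the 21 had a higher mean under flow (median -0.36), and 6 were lower and 0 higher at an unadjusted p under 0.05 (5.7% of all genes lower), with Lif at -1.14, Ccl2 at -1.43 and Hbegf at -0.97. The 6 became 1 without sham 24 h replicate 2 or flow 24 h replicate 2 (2.26% and 3.2% of all genes), and 0 without flow 24 h replicate 3 (2.8%) or without sham 24 h replicates 1 and 2. At 0 and 8 h 9 and 11 of the 21 were higher. This list and that of the immediate early genes share 1 gene, Ptgs2.

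The remaining lists had medians within 0.1 of 0 at each time. Of 16 other bZIP genes, 0 were called, and at 24 h 4 were higher and 1 lower at an unadjusted p under 0.05 (9.8% and 5.7% of all genes). The 3 with the smallest p were Maff (-0.56), which encodes a small Maf protein, Batf2 (0.32) and Ddit3 (0.36), which encodes the stress-induced factor CHOP. Of 23 kinases and factors upstream of AP-1, 0 were called, and at 2 h 2 were higher and 1 lower at an unadjusted p under 0.05 (5.99% and 7.58% of all genes). These were Srf, the serum response factor gene (0.49), and Map2k3 (0.53), both higher, and Elk3, an ETS factor gene (-0.27). At 0 h 2 of the 23 were higher and 3 lower (8.42% and 5.53% of all genes). The 3 with the smallest p at 0 h were Mef2a (-0.49), Mapk9 (0.28) and Map3k5 (0.48), with an adjusted p = 0.218 each from limma. At 8 h Mef2a differed by 0.42 and Mapk9 by -0.23. Of 10 genes of AP-1 turnover and cofactors, 0 were called, and at 24 h 2 were higher and 1 lower at an unadjusted p under 0.05 (9.8% and 5.7% of all genes). They were the coactivator gene Ncoa1 (0.27), the ubiquitin ligase gene Itch (0.21) and Gsk3b, a kinase that marks Jun for degradation (-0.37).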

How the data were processed

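Total RNA of 24 MLO-Y4 samples (flow or sham at 0, 2, 8 and 24 h, 3 arrays per group) was measured on Affymetrix arrays. The authors deposited log2 expression values, and the submitters' processing notes name RMA, which corrects the background, sets all arrays to one distribution and summarises the probes of a probe set. Its version is not given in the sources used here, and the values were used as deposited. They ran from 2.02 to 14.11, with array medians of 6.71 to 6.80, and the number of arrays limits the precision.

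Probe sets with 1 symbol in the platform annotation (20380) were kept, 691 with several, 1555 with none and 64 controls were left out, and 29 identifiers had no entry in the RefSeq gene table. Where a gene had several, the one of highest mean stood for it, which gave 12393 genes. A model with 1 mean per labelled group over all arrays was fitted in R 4.3.3 by lmFit, contrasts.fit and eBayes of limma 3.58.1, with Benjamini-Hochberg adjustment over all genes, two-sided, at 0.05. Intervals are 95% and unadjusted, and for each gene they use a spread pooled over all groups. The fit was tested on simulated data with known changes at 2 h. It called 72%, 100%, 96% and 100% of changes of 0.5, 1, 2 and 3 log2 units, and 13 unchanged genes. The changed genes were drawn from all genes, whose median within-label standard deviation was 0.122. That of the members was larger, from 0.132 for Fosl2 to 0.853 for Fos, so these shares need not hold for the members. The simulated noise was independent between arrays, so the simulation does not cover the likeness of adjacent columns in these data.

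The members and lists were chosen with earlier results of these data known. All members are named, and a difference is given for a gene of another list only if its p was among the 3 smallest of its list in that comparison. Cell type markers are named from lists with their levels, and the genes that share a set of columns with Fosb were named after their values were seen. For each member the 3 genes with the highest Pearson r over the arrays could be named. Alternatives were array weights, a replicate block, moderation with a trend and robust variances, median centring, a second quantile normalization, a dim filter (log2 of at least 6 in 3 arrays, which kept 7971 genes), probe sets averaged by gene, every probe set separately, a fit of only the 6 arrays at a time, and leaving out single arrays, which for the gene lists was chosen after seeing the data. Promoters are from RefSeq (GRCm38.p6), and motifs were searched on both strands with Python 3.11.15.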

Additional observations from a re-analysis of the deposited data

Results flagged for a closer look

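Fosb and Junb had differences of opposite sign at different labelled times, with no overlap between flow and sham. They were picked for this pattern at any of the 4 times. The share of all genes with the pattern was not counted, so whether the members exceed it is not known. At 8 h each flow array exceeded each sham array for Fosb, with a mean log2 difference of 0.21, and at 24 h each was lower, with a difference of -1.21. Of all genes, 7.05% had flow above without overlap at 8 h and 6.29% had flow below at 24 h. The closest flow and sham arrays for Fosb at 8 h were at 3.79 and 3.71. For Junb each flow array was lower than each sham array at 0 h (-0.42) and higher at 2 h (0.52), beside 7.92% and 9.16% of all genes. The closest flow and sham arrays for Junb at 0 h were at 8.017 and 8.034. The difference between either pair of times was not tested by itself. Over the 4 times together, limma's F-test gave an adjusted p = 0.0823 for Fosb and an adjusted p = 0.0803 for Junb, which missed the threshold of 0.05. Without sham 24 h replicates 1 and 2, the 24 h difference of Fosb was -0.18. Fosb did not reach a log2 value of 6 on any of the 24 arrays.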

How the results depend on the processing

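Of 476 differences of single members under an alternative, 445 kept their direction and side of the threshold, 15 passed the threshold that they had missed and 16 changed sign. Array weights moved most. With them the genes called were 2330, 2312, 3151 and 2361 at 0, 2, 8 and 24 h, 5955 for the difference between times, 53 for the mean over times, 5490 across times among flow arrays and 4675 among sham arrays, and the members called were 3 at 2 h (Fosl1, Fosl2 and Junb), 3 at 8 h (Fos, Junb and Atf3), 5 at 24 h, 8 for the difference between times, 4 among flow arrays and 8 among sham arrays. The weights ran from 0.303 to 3.83, and the lowest of each group was that of the array paired by column with another label. With every probe set tested separately, 1 gene had a called probe set at 0 h, 188 among flow arrays and 180 among sham arrays. Quantile normalization again, median centring and the mean of all probe sets each gave 1 gene at 2 h. The replicate block gave 17 genes among flow arrays, against 28 without it, and 18 among sham arrays, against 51, and it changed no other call. Same-numbered flow and sham arrays correlated from -0.346 to 0.192 in their deviations. The study paired flow with sham samples, but whether the numbers give the pairs is not stated and these correlations do not bear it out, so the block is given as an alternative alone. The cause of these changes was not tested.

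With 1 array left out, the genes called ran from 0 to 117 at 2 h (117 without sham 2 h replicate 3), from 0 to 672 at 8 h (672 without flow 8 h replicate 1 and 301 without sham 8 h replicate 3), from 0 to 278 at 24 h (278 without sham 24 h replicate 3 and 2 without flow 24 h replicate 1), from 0 to 2045 for the difference between times (2045 without flow 8 h replicate 1, 1708 without sham 2 h replicate 3, 1027 without flow 0 h replicate 1, 976 without sham 24 h replicate 3 and 495 without sham 8 h replicate 3), from 8 to 470 among flow arrays (470 without flow 8 h replicate 1 and 66 without flow 24 h replicate 1) and from 14 to 410 among sham arrays (410 without sham 2 h replicate 3, 235 without sham 24 h replicate 3 and 99 without sham 8 h replicate 3). The members called ran from 0 to 4 at 24 h, from 0 to 4 for the difference between times and from 0 to 3 among sham arrays. Each array whose removal gave called members was the array of lowest weight in its group. Signs turned for Fosb at 0 h (-0.16 to 0.17, and -0.062 with array weights), Atf3 at 0 h (-0.84 to 0.14), Fos at 2 h (-0.39 to 0.048) and Jund at 24 h (-0.080 to 0.076, and 0.016 with array weights). Without sham 24 h replicates 1 and 2, an alternative chosen after seeing the data, the 24 h differences of Fos (0.031), Fosl2 (0.12) and Jund (0.14) turned, and 5 genes were called among sham arrays. The lone sham array is then assumed to vary like the other groups. Fosb could not be fitted under the filter on dim genes, since it never reaches a log2 value of 6.

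Each group holds 3 arrays, the values carry no detection calls, and below a log2 value of 6 array signals are least certain: Fosb reached it on 0 of the 24 arrays, Fosl2 on 7 and Fos on 12. The pooled within-label standard deviation was above the median of all genes (0.122) for all 8 members, from 0.132 for Fosl2 to 0.853 for Fos. The differences depend on the labels of the arrays, and the most similar array carried another label for 8 of the 24 arrays.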
